A study of Rattus norvegicus with 10 samples.

Results

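The cytosolic ribosomal protein genes are the genes of the proteins that, with ribosomal RNA, build the 60S and 40S subunits of the ribosome. Members were taken by name: a gene symbol of Rpl or Rps followed by a number, or Rplp0, Rplp1, Rplp2 or Rpsa, with the Rps6k kinases left out. The arrays held 116 probes of 80 such genes. Of these, 112 probes of 77 genes stood well above background on 5 or more of the 10 arrays, out of 16788 genes with such a probe, and they comprised 48 genes of the 60S and 29 of the 40S subunit. All 112 probes were well above background on all 10 arrays. The genes left without a measured probe were Rpl3l (well above background on 1 array), Rpl39l1 (1 array) and Rps12l4 (0 arrays), and a second probe of Rpl28 (1 array) was not used.

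The samples were mammary tumours of female Sprague-Dawley rats aged 110 days, hybridised singly in Cy3 to Agilent whole rat genome arrays, with 200 ng of total RNA labelled for each. In the Western-style diet group (WD, 5 tumours) the dams ate a diet rich in fat and poor in fiber and oligoelements on gestational days 12 to 20 and postnatal days 1 to 21, and in the control diet group (CD, 5 tumours) they ate the control diet over the same days. Daughters of both groups ate the control diet from weaning and received 1 intraperitoneal dose of 50 mg/kg of the carcinogen N-methyl-N-nitrosourea at 3 weeks of age, so both groups carry a carcinogen-induced tumour, of tubular or papillary form, and neither is untreated tissue. The question was whether the mother's diet is associated with a different transcriptome in the daughters' tumours. Dams and litters are not named in the labels, so tumours of 1 group may share a mother, and the p-values measure the spread between tumours only.

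Ribosomal proteins are made in near-equal amounts to one another and assembled on ribosomal RNA in the nucleolus. Their messenger RNAs carry a run of pyrimidines at the very start, the 5′ terminal oligopyrimidine tract, through which growth signals by way of mTOR set how much of them is translated, so a cell can change output of these proteins without a change of the RNA. Several are also known for roles outside the ribosome, such as binding of Mdm2 by Rpl5 and Rpl11, and several are in wide use as reference genes for RNA measurements.

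The start regions of 6 genes on which the results below turn are shown so that the bases at the start can be read. Each line gives 30 bases before the annotated transcription start in lower case and the first 15 transcribed bases in capitals, from RefSeq on the GRCr8 assembly, which served only for names and sequences since the array's own annotation is on rn4.
Rps27, chr2:177964592-177964636, minus strand: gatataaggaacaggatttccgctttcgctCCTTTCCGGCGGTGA
Rpl13, chr19:68062484-68062528, plus strand: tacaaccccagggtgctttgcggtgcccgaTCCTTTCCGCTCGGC
Rps12, chr1:23500045-23500089, plus strand: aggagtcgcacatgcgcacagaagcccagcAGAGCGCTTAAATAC
Rpl3, chr7:113507976-113508020, minus strand: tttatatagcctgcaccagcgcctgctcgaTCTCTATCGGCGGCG
Rpsa, chr8:128728849-128728893, plus strand: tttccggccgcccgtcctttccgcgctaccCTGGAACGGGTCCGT
Rps26, chr7:1643390-1643434, minus strand: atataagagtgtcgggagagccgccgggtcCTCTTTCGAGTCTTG
The printed starts differ: the transcribed bases of Rps27, Rpl13 and Rps26 hold CTTTC, that of Rpsa lies before the annotated start, and those of Rps12 and Rpl3 hold neither CTTTC nor CTTCC in the bases shown. Of the 77 genes, 61 had an entry in the RefSeq promoter table. The letters CTTTC, read on the transcribed strand, lay within 30 bases of the start in 33 of them (54.1%), against 7.84% of 27457 promoters of all genes in windows of the same 60 bases. On the other strand CTTTC lay in 1 of the 61 (1.64%) and in 7.50% of all promoters. CTTCC lay in 25 (41.0%) on the transcribed strand, against 12.2% of all promoters, and in 6 (9.84%) on the other strand, against 13.1%. Both motifs lay on the transcribed strand in 15 of the 61 (24.6%) and in 1.15% of all promoters. The motifs are counted separately and share no overlap rule, and a match describes the letters only.

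Levels below are log2 of the processed signal minus the 75th percentile of the array, so that 0 is that percentile. Differences are WD minus CD, with the standard error (SE) of limma, a linear model fitted over all 19755 probes that passed the background filter, and adjusted p is after Benjamini-Hochberg over those probes. The level of a probe depends on its sequence, so levels are compared between tumours and not between genes. For genes with several probes, the one with the highest mean level stands for the gene unless another is named. Some values below come from a fit with array brightness as a covariate. Brightness went partly with diet, so that fit cannot fully tell them apart. Many ribosomal protein genes have near-identical copies in the genome (RefSeq lists 275 symbols of this form), so the signal of a probe may include RNA of a copy.

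No ribosomal protein probe differed between the maternal diet groups at an adjusted p under 0.05. The same count was 0 of all 19755 probes (0%), and the lowest adjusted p was 0.175 among the members and 0.124 among all probes (limma). At an unadjusted p under 0.05 the members held 7 of 112 probes (6.25%), against 15.6% of all probes. Of these 7, 4 were higher in WD (3.57%, all probes 7.26%) and 3 were lower (2.68%, all probes 8.34%). Ribosomal protein probes are bright, and among the 746 probes on the array with a mean level of at least 5 the share was 7.1%, against 5 of 100 members. The number of such members and its split by direction depended on the scaling of the arrays. After quantile normalization 3 were higher and 4 lower. With the 75th percentile taken over probes above background on all arrays the split was 8 and 2. With the array median it was 0 and 16, where the median of all probes also shifted by -0.256. Shares of all probes by direction are not given for these scalings. With slide as a block the count was 10 (17.2% of all probes), 9 higher and 1 lower, the latter Rpl3.

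The differences of the ribosomal protein probes were small and centred near 0. Their median was 0.01 with quartiles of -0.12 and 0.13, against -0.005 with quartiles of -0.23 and 0.23 over all probes. Of the 112 probes, 59 were higher in WD (52.7%, all probes 49.5%), 110 lay within 0.5 of 0, and 92 differed by a fold under 1.2. The median size of the difference was 0.131, against 0.234 over all probes and 0.155 over the bright ones. Within slides 1, 2 and 3 of the arrays, the members' median difference was 0.02, 0.08 and 0.09. Over all probes these medians were 0.03, -0.03 and 0.02, and over the bright ones 0.005, 0.05 and 0.09. CD tumour 2 was the only CD tumour on slide 1, and WD tumour 5 the only WD tumour on slide 3. Differences within those slides, here and below, thus rest on a single array of that group. With slide as a block the members' median was 0.06, with 74 of 112 probes higher. The share of all probes higher in that fit is not given here.

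**Figure D1:**
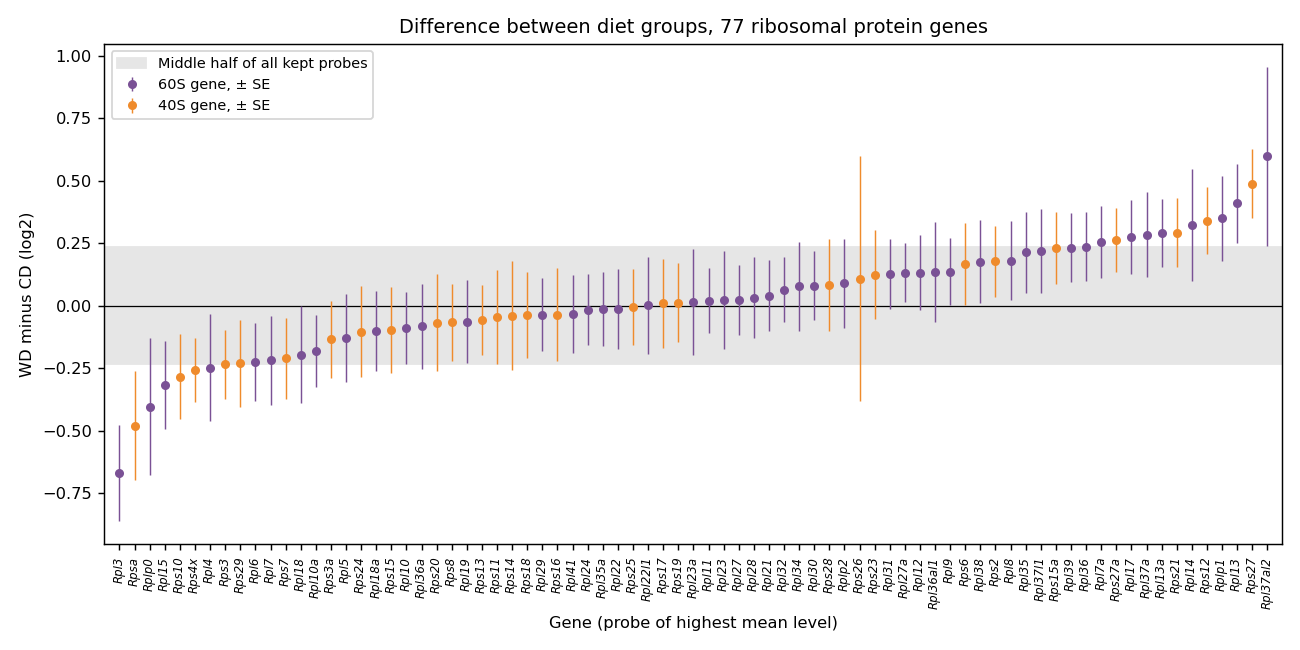
Differences between diet groups (WD minus CD, log2, with SE) for the 77 ribosomal protein genes, each by its probe of highest mean level, ordered by size; purple points are 60S genes, orange points 40S genes, and the grey band spans the quartiles of all kept probes, -0.23 to 0.23. Rpl3 lies lowest at -0.67 and Rpl37al2 highest at 0.60, the latter with an SE of 0.36.

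The 60S and 40S genes were spread on both sides of 0. Of the 48 genes of the large subunit 30 were higher and 18 lower, with a median difference of 0.04. The 29 genes of the small subunit comprised 12 higher and 17 lower, with a median of -0.04. By gene, 42 of 77 were higher (54.5%), against 51.4% of all 16788 genes counted the same way. The difference between the subunits was not tested.

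Among the genes higher in WD, Rps27, a zinc finger protein of the small subunit, had the smallest p. Its levels were 7.04, 7.27, 7.13, 6.92 and 7.0 in WD tumours 1 to 5 and 6.63, 6.82, 6.57, 6.33 and 6.58 in CD tumours 1 to 5. The lowest WD tumour lay above the highest CD tumour, so the groups did not overlap. Mean levels were 7.07 ± 0.13 and 6.59 ± 0.18 (SD, n = 5 each), a 1.40-fold difference of 0.49 (SE 0.14, adjusted p = 0.175, limma). Within slides 1, 2 and 3 it was 0.33, 0.45 and 0.52.

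Rpl13, a protein of the large subunit, was 8.50, 8.99, 8.61, 8.20 and 8.62 in WD and 8.34, 8.10, 8.19, 8.11 and 8.14 in CD. WD tumour 4 lay within the range of the CD tumours, and the other WD tumours lay above it. The difference was 0.41 (SE 0.16, 1.33-fold, adjusted p = 0.259, limma). A second Rpl13 probe differed by 0.11.

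Rps12, a protein on the beak of the small subunit, was 8.69, 8.78, 8.97, 8.78 and 8.95 in WD and 8.70, 8.36, 8.58, 8.47 and 8.36 in CD. CD tumour 1 lay just above the lowest WD tumour, so the groups overlapped by that pair. The difference was 0.34 (SE 0.13, 1.27-fold, adjusted p = 0.261, limma), and it was 0.38, 0.40 and 0.37 within slides 1, 2 and 3. A second Rps12 probe differed by 0.05, and with the matrix values the first differed by 0.20.

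The next 5 genes higher in WD, by p, were Rps21, Rpl13a, Rps27a, Rplp1 and Rpl17. Rps21, Rpl13a and Rpl17 differed by 0.29, 0.29 and 0.28 (adjusted p = 0.333, 0.333 and 0.387, limma), and for each the WD tumours were above the CD mean in 5 of 5 cases. With array brightness as a covariate Rps21 differed by 0.16, with the matrix values Rpl13a differed by 0.17, and a second Rpl17 probe differed by -0.02. Rpl13a is often used as a reference gene, and here its level was 8.75 ± 0.18 in WD and 8.46 ± 0.11 in CD (SD, n = 5 each). Rps27a encodes a fusion of ubiquitin with a small subunit protein. Its levels were 8.04, 8.24, 8.16, 8.11 and 8.06 in WD and 7.98, 7.71, 8.01, 7.87 and 7.74 in CD, without overlap, and it differed by 0.26 (SE 0.13, adjusted p = 0.341, limma), or 0.15 with array brightness as a covariate. Rplp1 is described with the stalk below.

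Among the genes lower in WD, Rpl3, which lies next to the peptidyl transferase center of the large subunit, was furthest from 0. It was 5.69, 5.31, 5.20, 5.41 and 5.66 in WD and 6.49, 5.97, 5.81, 6.52 and 5.83 in CD. Every WD tumour lay below every CD tumour. The means were 5.45 ± 0.22 and 6.13 ± 0.36 (SD, n = 5 each), a 1.59-fold difference of -0.67 (SE 0.19, adjusted p = 0.175, limma). Within slides 1, 2 and 3 it was -0.47, -0.52 and -0.85, and with the brightness of the array as a covariate it was -0.46.

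Rpsa, a small subunit protein also known as the laminin receptor, was 5.52, 4.59, 5.08, 4.82 and 5.36 in WD and 5.80, 5.85, 5.11, 5.69 and 5.32 in CD. The groups overlapped, with WD tumours 1 and 5 above CD tumours 3 and 5. The difference was -0.48 (SE 0.22, 1.40-fold, adjusted p = 0.318, limma), and with array brightness as a covariate it was -0.17. A second Rpsa probe differed by -0.31.

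The next 6 genes lower in WD, by p, were Rps4x, Rpl15, Rps3, Rps10, Rplp0 and Rpl6. Rps4x, a small subunit protein encoded on the X chromosome, was 6.02, 5.88, 5.85, 5.94 and 6.07 in WD and 6.39, 6.06, 6.18, 6.31 and 6.10 in CD, and only WD tumour 5 lay above the lowest CD tumour. It differed by -0.26 (SE 0.13, adjusted p = 0.354, limma). Rpl15, Rps10, Rps3 and Rpl6 differed by -0.32, -0.28, -0.23 and -0.22 (adjusted p = 0.401, 0.433, 0.429 and 0.501, limma). With brightness as a covariate Rpl15 differed by -0.19 and Rps10 by -0.17, without WD tumour 2 Rpl15 differed by -0.19, and with normexp Rpl6 differed by -0.15. Rps3 lies at the messenger RNA entry of the small subunit and also acts in DNA repair. Rplp0 is described with the stalk.

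**Figure D2:**
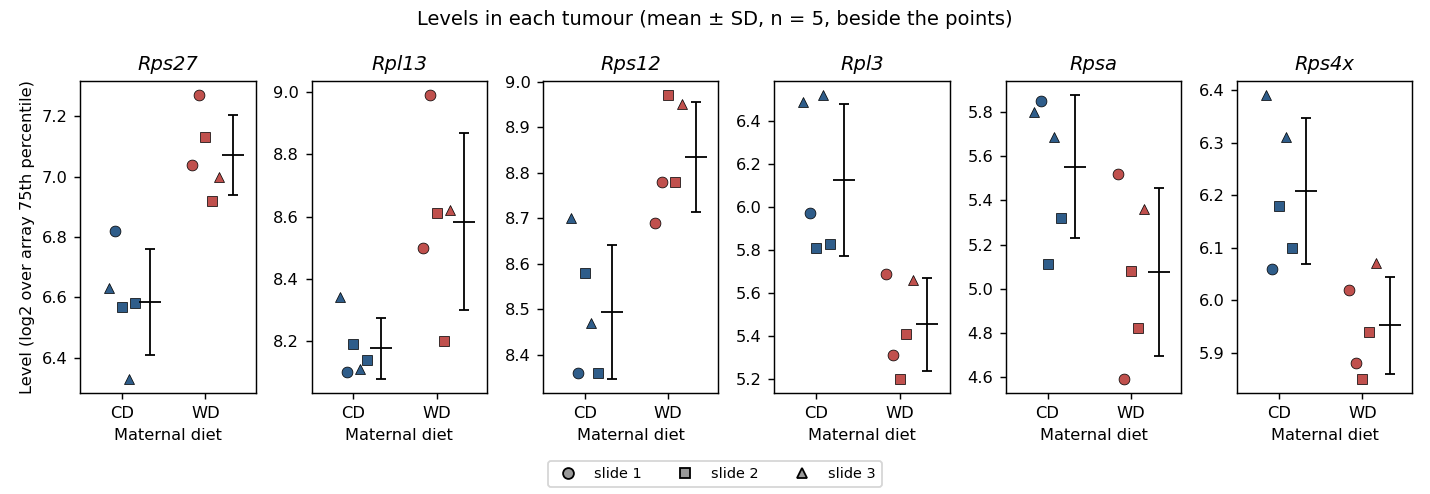
Levels (log2 over the array's 75th percentile) of 6 ribosomal protein genes in each tumour, CD in blue and WD in red, with the mean and SD (n = 5) beside the points and the marker shape giving the slide. The groups do not overlap for Rps27 and Rpl3, and none of the 6 passed an adjusted p of 0.05. The vertical axes are cut to the range of each gene.

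In all, 4 of the 112 probes (3.57%) had groups that did not overlap, against 3.79% of all probes. They were Rps27, Rps27a and Rpl3 and a second probe of Rpl29.

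The stalk of the large subunit, which recruits the translation GTPases, is made of Rplp0 with copies of Rplp1 and Rplp2. Its members did not share a direction. Rplp1 was 10.07, 10.34, 10.71, 10.15 and 10.33 in WD and 10.14, 9.62, 10.24 and 9.83 in CD tumours 1, 2, 3 and 5, with CD tumour 4 between tumours 5 and 1. The groups overlapped, and the difference was 0.35 (SE 0.17, adjusted p = 0.348, limma), or 0.15 with array brightness as a covariate and 0.06 with the matrix values. Rplp2 differed by 0.09 (SE 0.18). Rplp0 was 3.87, 3.09, 2.98, 2.63 and 3.65 in WD and 3.85, 4.16, 2.99, 3.67 and 3.57 in CD. The ranges of the groups overlapped widely, and the difference of -0.40 (SE 0.27, adjusted p = 0.490, limma) was 0.06 with array brightness as a covariate.

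Other genes with known roles lay closer to 0 than Rplp0 and Rplp1. Rps6, the target of the S6 kinases, was 9.55 ± 0.18 in WD and 9.38 ± 0.26 in CD (SD, n = 5 each), a difference of 0.17 (SE 0.16). Rps19, mutated in Diamond-Blackfan anemia, differed by 0.01 (SE 0.16). Rps18, in use as a reference gene, differed by -0.04 (SE 0.17). Rpl5 and Rpl11, which bind Mdm2 together with 5S RNA, differed by -0.13 (SE 0.18) and 0.02 (SE 0.13). Rpl10, which joins the large subunit late in its maturation, differed by -0.09 (SE 0.14). For all 6 the groups overlapped.

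The genes also differed in how much they varied between tumours after removal of the group means. The median SD over the 112 probes was 0.216, against 0.343 over all probes and 0.257 over the bright ones, and 105 of the 112 (93.8%) lay below the median of all probes. With the deposited matrix values, which were not background-subtracted, the medians were 0.212 for the members and 0.203 for all probes, and with the normexp background correction they were 0.590 and 0.344, so the order was not kept in either; these alternatives differ from the main values in more than 1 step. The members with the smallest SD were Rpl27a (0.0707), Rps27a (0.113) and Rps4x (0.118). Rpl27a, a large subunit protein, was 8.17, 8.10, 8.28, 8.21 and 8.28 in WD and 8.19, 8.05, 8.04, 8.07 and 8.03 in CD, a difference of 0.13 (SE 0.12).

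The widest spread was that of Rps26, a small subunit protein at the messenger RNA exit, with an SD of 0.898. It was 4.02, 4.28, 2.53, 2.18 and 2.35 in WD and 3.59, 3.66, 2.05, 3.35 and 2.16 in CD. The tumours fell into a high set of WD tumours 1 and 2 and CD tumours 1, 2 and 4 and a low set of the other 5, with both diets in each. The difference between diets was 0.11 (SE 0.49, adjusted p = 0.933, limma).

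The levels of Rps26 followed the slide of the array in part. Slide 1 held WD tumours 1 and 2 and CD tumour 2, at 4.02, 4.28 and 3.66. All 4 tumours of slide 2 were low, and slide 3 held WD tumour 5 at 2.35 with CD tumours 1 and 4 at 3.59 and 3.35. The slides were scanned separately, and an effect of the slide and one of its scan cannot be told apart. In limma with slide as a term, Rps26 passed at an adjusted p of 0.0445.

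Rpl37al2, named as a relative of the large subunit gene Rpl37a, was the next most variable, with an SD of 0.642. It was 3.37, 3.62, 2.29, 1.78 and 2.54 in WD and 2.22, 2.92, 1.94, 1.64 and 1.89 in CD. The 3 tumours of slide 1 were the highest of the 10, and the adjusted p of the slide term was 0.0404 (limma). The difference between diets was 0.60 (SE 0.36, adjusted p = 0.433, limma), 0.39 with slide as a block and 0.37 without WD tumour 2. Rps26 and Rpl37al2 were the 2 members past an adjusted p of 0.05 for slide (1.79%), against 2.11% of all probes, and at an unadjusted p under 0.05 the slide term held 13 members (11.6%), against 15.2%.

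**Figure D3:**
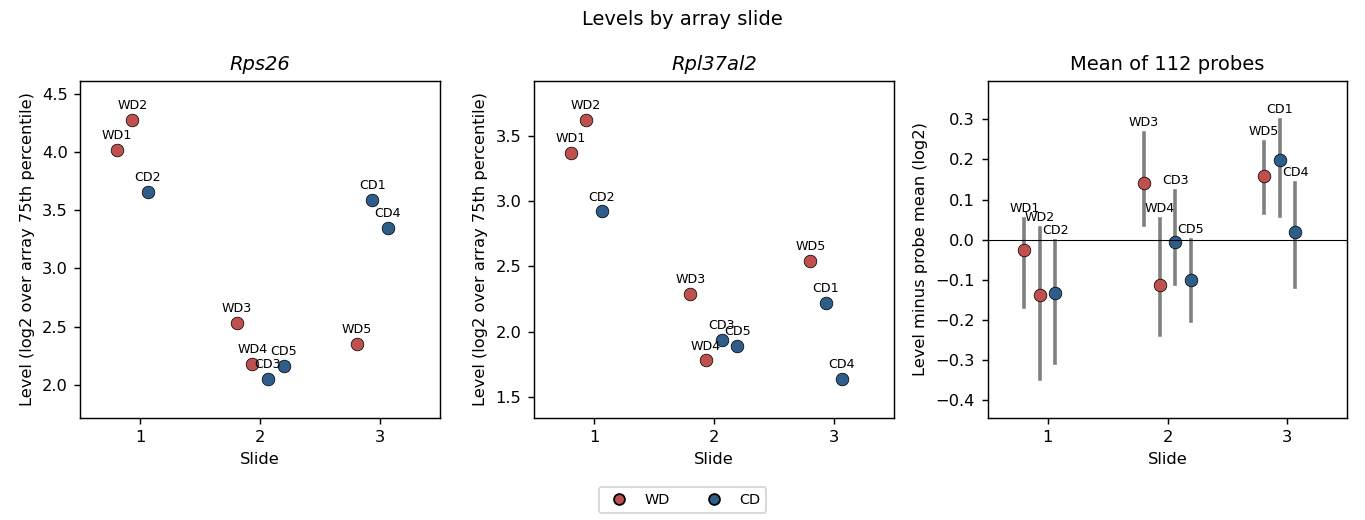
Levels of Rps26 and Rpl37al2 (log2 over the array's 75th percentile) and the mean of the 112 ribosomal protein probes (each minus its own mean, log2, grey lines spanning the quartiles) by array slide, WD in red and CD in blue. The 3 tumours of slide 1 lie between 3.66 and 4.28 for Rps26, and the 4 tumours of slide 2 lie between 2.05 and 2.53. The vertical axes do not start at 0.

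The level of the members as a whole, as the mean of the 112 probes each centred on its own mean, was -0.03, -0.14, 0.14, -0.11 and 0.16 in WD tumours 1 to 5 and 0.20, -0.13, -0.01, 0.02 and -0.10 in CD tumours 1 to 5. The group means were 0.005 ± 0.139 and -0.005 ± 0.129 (SD, n = 5 each). CD tumour 1 and WD tumour 5 were highest, and both were on slide 3. WD tumour 2 was lowest, on slide 1. A pair of probes correlated over the 10 tumours with a median r of 0.38, and 79.5% of pairs were positive. The points of such a pair share the array and its scaling, and some pairs are probes of the same gene. Pairs over all probes were not computed, so these values cannot be read as particular to the members. The first principal component held 35.0% of the members' variance and the second 26.4%, against 29.0% and 16.8% for all probes.

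**Figure D4:**
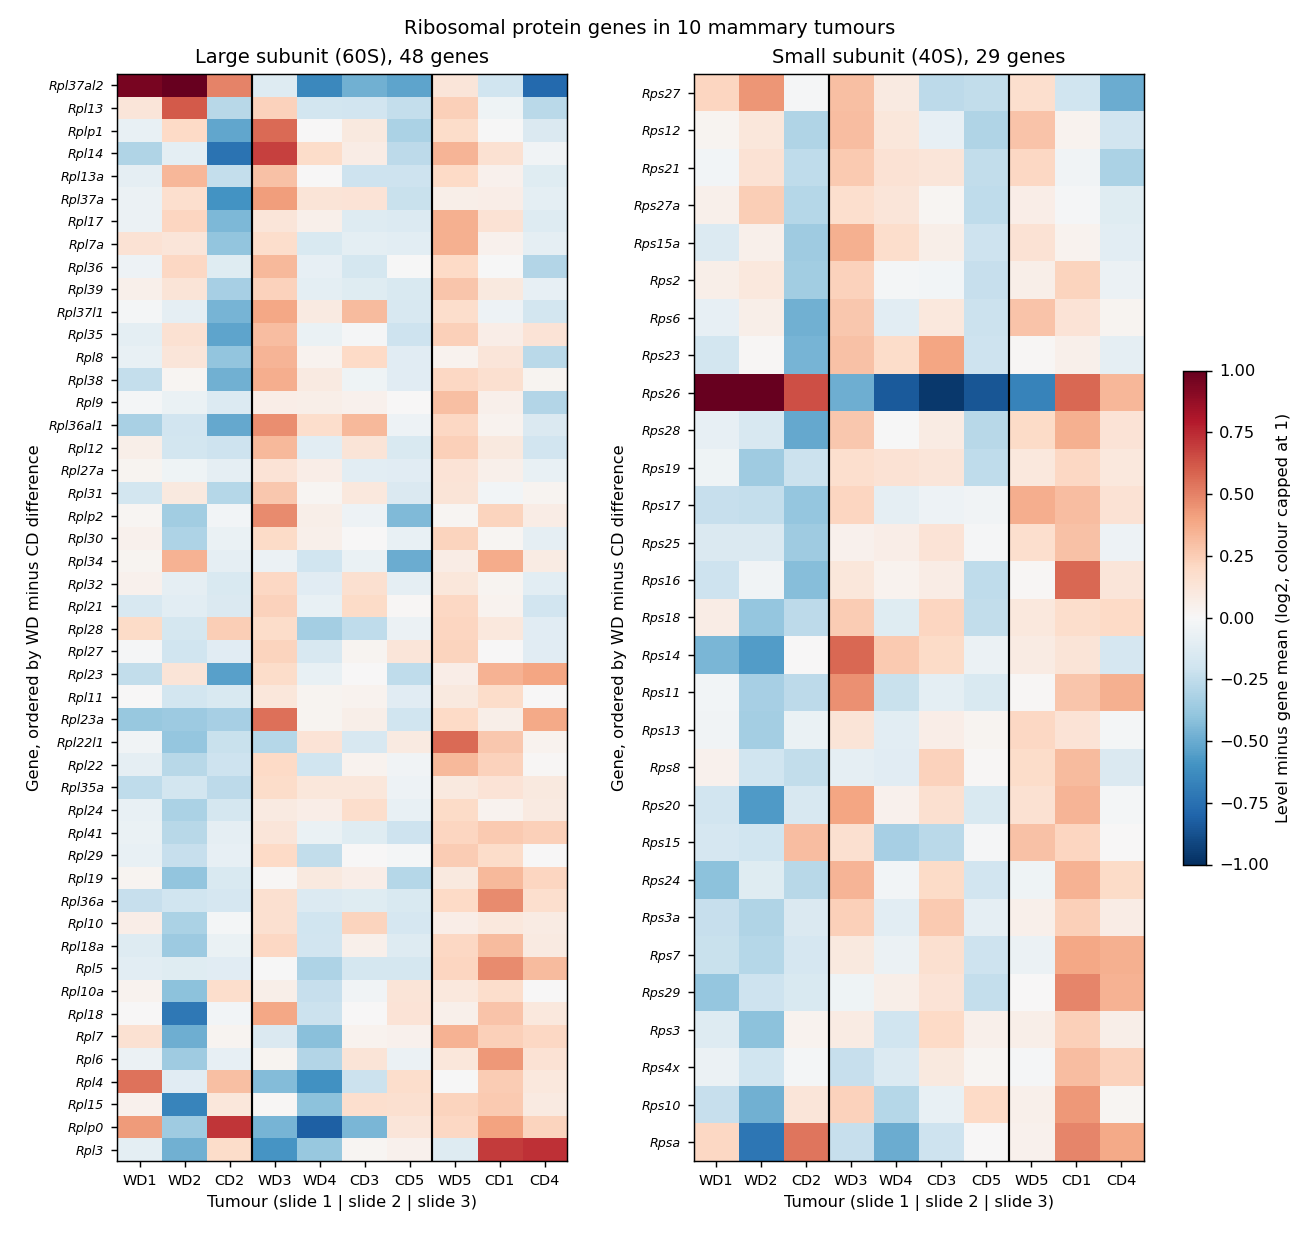
Level of each ribosomal protein gene minus its own mean over the 10 tumours (log2, colours capped at 1), for 48 genes of the 60S and 29 of the 40S subunit, ordered by WD minus CD difference, with tumours grouped by slide. The mean of all members was 0.16 and 0.20 in WD tumour 5 and CD tumour 1 of slide 3, and Rps26 and Rpl37al2 are high in the tumours of slide 1.

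The brightness of the arrays differed, and no array had saturated spots. The 75th percentile of the processed signal was 112, 81.0, 72.8, 98.6 and 170 in WD tumours 1 to 5. In CD tumours 1 to 5 it was 188, 204, 85.0, 190 and 226. Most WD arrays were thus dimmer than most CD arrays. A fit with brightness as a covariate can take part of a diet difference with it, and brightness and diet cannot be fully told apart. A term for brightness held 3 members at an unadjusted p under 0.05 (2.68%, all probes 12.1%), a second probe of Rpl5, Rplp0 and Rps23, and 0 at an adjusted p under 0.05 (all probes 0%, limma). With brightness as a covariate, 1 member had an unadjusted p under 0.05. The share of all probes also fell in that fit, and it is given with the dependence on processing below.

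Of the 26 genes with several probes, 14 had probes in both directions. The 5 with the widest gap among these were Rpl29 (-0.37 to 0.13), Rps2 (-0.17 to 0.25), Rpl35a (-0.01 to 0.39), Rpl5 (-0.35 to 0.03) and Rpl15 (-0.32 to 0.03). For Rpl35a the 2 probes, both for the same large subunit protein, differed by -0.01 and by 0.39 (SE 0.15 each, adjusted p = 0.972 and 0.265, limma). The second probe of Rpl35a was 4.77, 5.11, 5.07, 4.80 and 5.28 in WD and 4.84, 4.47, 4.60, 4.41 and 4.75 in CD, so that only CD tumour 1 lay within the range of the WD tumours. Rpl29 had 4 probes. The second was 4.66, 4.21, 4.80, 4.46 and 4.87 in WD and 5.09, 4.94, 4.94, 4.90 and 4.96 in CD, with no overlap and a difference of -0.37 (adjusted p = 0.279, limma), while the probe of highest level differed by -0.04. Among all 77 genes, 35 had all probes higher and 28 all lower.

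**Figure D5:**
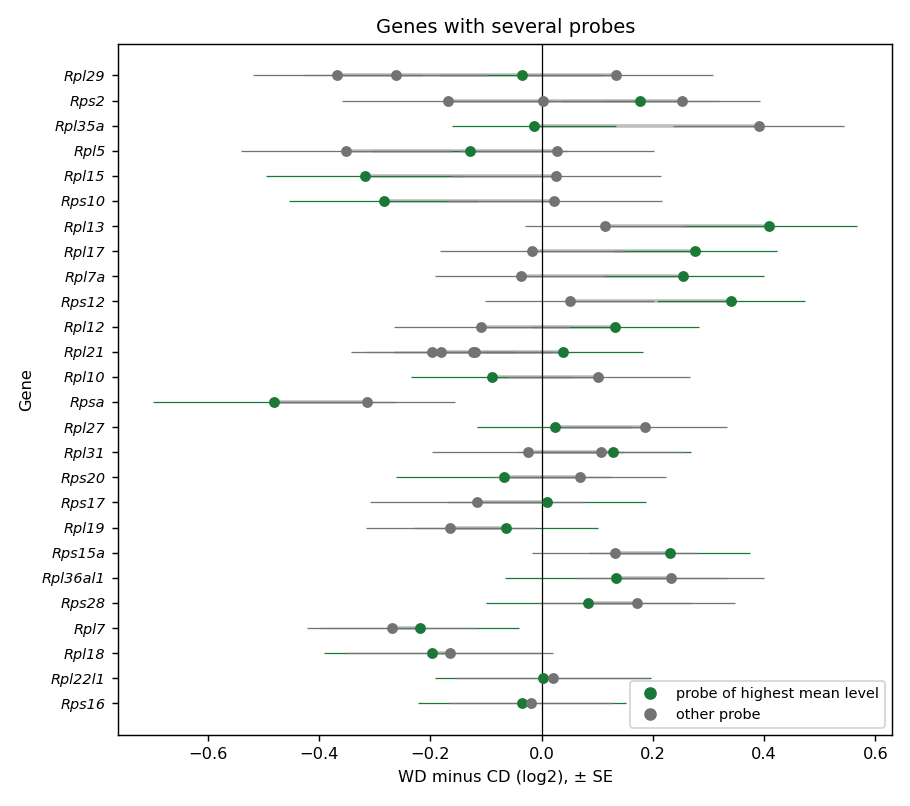
Differences between diet groups (WD minus CD, log2, with SE) for each probe of the 26 ribosomal protein genes with several probes, the probe of highest mean level in green and the others in grey. Probes of Rpl29 span -0.37 to 0.13, and 14 genes have probes on both sides of 0.

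Ribosomes can carry one of 2 paralogues of a protein, and 2 of the 9 pairs listed had both genes measured. The log2 ratio of Rpl22l1 to Rpl22 within the array was -2.13 ± 0.33 in WD and -2.14 ± 0.12 in CD (SD, n = 5 each), a difference of 0.02 (exact two-sided permutation test, p = 0.937, adjusted over the 2 pairs 0.937). For Rpl36al1 over Rpl36a it was 0.04 ± 0.19 and -0.18 ± 0.37, a difference of 0.22 (exact two-sided permutation test, p = 0.254, adjusted 0.508). The smallest p that 5 against 5 allows is 0.0079. Ratios of probes show only whether the 2 genes changed unequally, and the difference for Rpl36al1 was -0.05 with array brightness as a covariate.

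Other genes of ribosome production and translation were counted for comparison, and none of these passed an adjusted p of 0.05. Of 36 translation factors 14 were higher and 22 lower, while 51.4% of all genes were higher. Their median difference was -0.12, with 2 and 5 at an unadjusted p under 0.05 (15.6% of all probes). Rack1, a scaffold that sits on the small subunit, was 5.54, 4.74, 5.09, 4.86 and 5.65 in WD and 6.41, 5.92, 5.70, 6.26 and 5.76 in CD, without overlap and 1.78-fold lower (-0.83, SE 0.22, adjusted p = 0.174, limma), or -0.54 with array brightness as a covariate. Eif3e, a subunit of the initiation factor eIF3, was 1.40-fold lower, at -0.48 (adjusted p = 0.175, limma), or -0.31 with normexp.

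Of 44 ribosome biogenesis genes 26 were higher and 18 lower (51.4% of all genes were higher), with a median of 0.04. At an unadjusted p under 0.05 were 1 and 1, against 15.6% of all probes. Of these, Heatr1, which acts in ribosomal RNA transcription and processing, differed by -0.72 and Dkc1, the pseudouridine synthase dyskerin, by 0.35. For Heatr1 the difference was -0.40 with brightness as a covariate, -0.37 with normexp and -0.44 with the matrix values. Of 17 genes that control ribosome production 9 were higher and 8 lower (51.4% of all genes were higher), with a median of 0.02. At an unadjusted p under 0.05 were 0 and 2, against 15.6% of all probes. These 2 were Max, the partner of Myc, at -0.47 and the kinase Akt1 at -0.69. With brightness as a covariate Akt1 was -0.21, and Max was -0.28 with normexp and with the matrix values. The 65 mitochondrial ribosomal proteins comprised 25 higher and 40 lower (51.4% of all genes were higher), with a median of -0.05. Of them 2 and 5 had an unadjusted p under 0.05, against 15.6% of all probes. The mitochondrial genes Mrps9 and Mrpl3 differed by -0.75 and -0.60 (adjusted p = 0.172 each, limma), and Mrpl3 by -0.31 with normexp and -0.32 with the matrix values.

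In bulk tumours, fewer cells of a type and less RNA per cell cannot be told apart. Luminal epithelial markers were measured for 7 of 7 genes, and 6 of the 7 were lower in WD, with mean levels of the list between 4.61 and 5.11 in WD and between 4.98 and 5.68 in CD. T cell markers were measured for 4 of 6 genes and all 4 were higher in WD, with list levels between 0.95 and 2.63 in WD and between 0.29 and 1.24 in CD. All 5 measured macrophage markers and all 6 fibroblast markers were also higher in WD, and 4 of 5 mast cell markers were lower. None of the 5 adipocyte markers had a probe that passed the background filter. Adipoq and Fabp4 were well above background on 4 and 3 arrays, Lep and Cidec on 0, and Plin1 had no named probe. Basal markers were 2 higher and 3 lower, milk markers 1 and 3, and endothelial markers 2 and 0. The only measured B cell marker was lower and the only muscle marker higher. At an unadjusted p under 0.05 were 4 T cell, 2 luminal, 1 macrophage, 1 mast cell, 1 muscle and 0 fibroblast markers (limma), against 15.6% of all probes. No marker passed an adjusted p of 0.05, and the luminal and T cell list levels overlapped between the groups. The part of the markers in the values of single members was not tested.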

How the data were processed

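The 10 tumours were measured with 1 array each. Per the file headers, the authors read the arrays with Agilent Feature Extraction 11.5.1.1 (15.5 in the submitters' processing notes), and the deposited files give spot intensity values as background-subtracted processed signals. The deposited series matrix holds log2 values that rank as each array's own median signals. Probe sequences were not used here. Names came from each probe's transcript identifier through RefSeq GRCr8, which matched 17502 probes (42.7%).

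Of 45018 spots, 1639 controls were left out. Processed signals were taken to log2, the array's 75th percentile was subtracted, outlier spots were dropped, spots of a probe were averaged, and probes well above background on at least 5 of 10 arrays were kept (19755). The number of arrays limits the precision. The group comparison used limma (version 3.58.1, under R 4.3.3), with Benjamini-Hochberg adjustment. The procedure was tested on simulated data with the means and spread of the kept probes. It recovered 48% of 100 probes changed 2-fold and 90% of 100 changed 4-fold, and 15 of its 153 calls were false. Smaller changes were not simulated. Paralogue ratios used exact permutation (scipy 1.17.1). The normexp alternative used median instead of mean spot signals, offset 50. Alternatives also covered scaling, matrix values, filters, slide, brightness, a replicate block and leaving out each tumour.

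Named genes were the 8 members of smallest p in each direction, genes of set roles, paralogue pairs, the 3 largest and 3 smallest SDs, the 5 widest disagreements between probes, and 2 genes per comparison list. The members and lists were chosen with earlier results of these data known; tests of slide and brightness terms and the set of bright probes were added after seeing the data. Same-numbered tumours did not deviate together (correlations of -0.03 to 0.16), so numbers were not taken as pairs.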

Additional observations from a re-analysis of the deposited data

Results flagged for a closer look

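Rpl27a in CD tumour 1 stood apart from its group: its level was 8.19, while the other 4 CD tumours lay between 8.03 and 8.07. The gap was 0.77 of the group's range. Among 72 groups of 5 tumours examined it was the only such case. Chance gives about 1 in 20 independent groups. The 72 groups share the same tumours, so the 1 case cannot be judged against that rate.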

How the results depend on the processing

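No ribosomal protein probe passed an adjusted p of 0.05 in limma under any alternative run. The count at an unadjusted p under 0.05, 7, was 0 with normexp (all probes 3.01%), 16 with median scaling (23.1%), 12 with the deposited matrix values (14.2%), 1 with array brightness as a covariate (5.75%) and 10 with slide as a block (17.2%). Leaving out each tumour gave 3 to 11: 3 without WD tumour 2, and 11 without WD tumour 1 or without CD tumour 3. The shares of all probes in these fits are not given here, so the range cannot be read as particular to the members. The median difference was -0.24 with median scaling, where all probes shifted by -0.256, and lay between -0.05 and 0.06 when a tumour was left out. The spread was 0.590 and the first component 84.1% with normexp. The cause of these changes was not tested.

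The replicate numbers were not taken as a pairing: 0 of the 10 tumours deviated most like the tumour of their own number in the other group. With the replicate block, 5 members had an unadjusted p under 0.05 and 0 were called, without the share of all probes beside the 5. The Rpl22l1 to Rpl22 ratio difference was -0.050 with matrix values, -0.015 with quantile normalization and -0.067 to 0.14 when a tumour was left out; the Rpl36al1 ratio was -0.047 with brightness.

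Of 33 named members, 14 changed sign under at least 1 alternative and 19 did not, with median scaling read relative to the shift of all probes. Read without that allowance, median scaling turned 9 named members, of which Rpl27a and Rps2 are among the 19. With brightness as a covariate the difference was 0.057 for Rplp0, -0.029 for Rps19, 0.0039 for Rpl5, 0.042 for Rpl22, -0.052 for Rpl36al1 and 0.021 for Rpl29. With matrix values it was -0.088 for Rps6, -0.076 for Rps19, -0.017 for Rpl11, 0.052 for Rpl22, 0.0049 for Rpl29 and 0.037 for Rpl35a. With quantile normalization it was -0.0085 for Rps19, -0.0098 for Rpl22l1, 0.0047 for Rpl22, 0.0085 for Rpl29 and 0.027 for Rpl35a. With normexp it was 0.043 for Rps18, 0.073 for Rpl22, 0.026 for Rpl29 and 0.058 for Rpl35a. With slide as a block it was 0.036 for Rps18, 0.067 for Rpl22, 0.014 for Rpl36a, -0.074 for Rps26, 0.021 for Rpl29 and 0.058 for Rpl35a. Leaving out a tumour gave -0.017 to 0.19 for Rplp2, -0.049 to 0.10 for Rps19, -0.11 to 0.055 for Rps18, -0.017 to 0.071 for Rpl11, -0.14 to 0.097 for Rpl22l1, -0.095 to 0.053 for Rpl22, -0.14 to 0.024 for Rpl36a, -0.19 to 0.33 for Rps26, -0.10 to 0.020 for Rpl29 and -0.081 to 0.047 for Rpl35a. The cause was not tested.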
